A study of Mus musculus with 27 samples.

Results

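The 10 genes described here are genes of neutrophils and their bone marrow and liver precursors (S100a8, S100a9, Ltf, Ngp, Camp, Mpo, Elane, Mmp8, Cxcr2 and Lcn2), measured in the liver of young mice. Each gene was represented by the probe set that names it alone, and each had 1 such probe set, so that the members were 10 of the 18820 genes measured. Liver RNA of each of 27 pups was run on its own Affymetrix array of the Mouse Gene ST type, and the values are log2 intensities. The pups were C57BL/6J mice of 2 weeks of age, and their dams received a Western-style diet (WSD) or a low fat diet (LFD) for 6 weeks before mating and then through gestation and lactation. The WSD contained 45 E% fat and 196.5 mg cholesterol/kg, and the LFD 10 E% fat and 18.0 mg cholesterol/kg. There were 6 males of WSD dams (m-WS), 6 males of LFD dams (m-LF), 6 females of WSD dams (f-WS) and 9 females of LFD dams (f-LF). The sires received the control diet in both groups.

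Neutrophils are short-lived white blood cells that arise in the bone marrow and, around birth, also in the liver, where blood formation recedes as the hepatocytes take over the organ. Their granules are filled in sequence: the azurophil (primary) granules of promyelocytes receive myeloperoxidase and elastase, the specific (secondary) granules of myelocytes receive lactoferrin, cathelicidin and lipocalin 2, and the receptors and cytosolic proteins of mature cells come later. The mRNAs of azurophil granule proteins thus mark early precursors, those of specific granules mark intermediate stages, and S100a8, S100a9 and Cxcr2 mark late stages. In whole liver, fewer cells of a type and less RNA per cell cannot be told apart.

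A number of unstated meaning is part of each array name, and none of these numbers occurs on both maternal diets. It was 39 (2 females), 40 (2 males and 2 females) or 48 (4 males and 2 females) on WSD, and 37 (2 males and 3 females), 49 (2 males and 4 females) or 50 (2 males and 2 females) on LFD. Whether the number stands for a dam or a litter is not given in the sources used here. If pups that share a number are not independent, p-values over pups are too small. The male pups m-LF6 and m-WS1 had Xist, the RNA of the inactive X chromosome, at 9.30 and 7.92, against 3.25 to 4.50 in the other 10 males and 11.67 to 11.88 in females, while Uty, Eif2s3y and Kdm5d of the Y chromosome were far above the female range in both pups. Results for males are therefore also given without these pups. Hepatocyte identity was plain in all pups, with a mean of the variable hepatocyte markers Hnf4a and Tat between 11.30 and 11.96.

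The members lie on 6 chromosomes (GRCm38.p6). S100a8 (chr3:90669071-90670034) and S100a9 (chr3:90692630-90695721) are neighbours on opposite strands. Camp (chr9:109847377-109849456), Ngp (chr9:110419808-110423012) and Ltf (chr9:111019292-111042766) share a stretch of chromosome 9, and Mmp8 lies elsewhere on the same chromosome. The starts of the member genes are shown first, before the values of the pups. The 250 bases before each gene start (RefSeq, GRCm38.p6; all 10 members matched) were searched on both strands for letters bound by factors of the granulocyte lineage. TTGCNNAA, letters of the C/EBP factors that drive granulocyte maturation, stood before 5 of the 10 members, against 9.56% of 32851 promoters. GAGGAAG, letters of PU.1, the master factor of myeloid cells, stood before 5 members (10.6% of all promoters), and TGTGGT, letters of RUNX factors, before 1 (14% of all promoters). None of these matches overlapped another. The windows below hold the C/EBP letters in capitals, as read along the strand of the gene. Where the match lies on the opposite strand, as in Ltf, the capitals are the reverse complement of the letters searched.
S100a9 (chr3:90695934-90695971, minus strand): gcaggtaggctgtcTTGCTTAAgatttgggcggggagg
Ltf (chr9:111019201-111019240, plus strand): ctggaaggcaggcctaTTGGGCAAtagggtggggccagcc
Ngp (chr9:110419654-110419693, plus strand): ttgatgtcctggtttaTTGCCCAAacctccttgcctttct
Mmp8 (chr9:7558394-7558428, plus strand): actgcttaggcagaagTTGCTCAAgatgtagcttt
Lcn2 (chr2:32387932-32387971, minus strand): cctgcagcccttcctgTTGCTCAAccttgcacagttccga
Ngp held a further match closer to its start, also on the opposite strand (window chr9:110419781-110419807, written along the plus strand), atgtcaccggcagttcTTGGGCAAggc. The PU.1 letters stood before S100a8, Mmp8 and Lcn2 as well as before Mpo and Elane, so they were not limited to early genes. For Mpo and Elane, genes of the promyelocyte stage, the PU.1 letters are in capitals below, and a further match of Mpo is not shown.
Mpo (chr11:87793544-87793582, plus strand): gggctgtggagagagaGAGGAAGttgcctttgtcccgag
Elane (chr10:79886211-79886249, plus strand): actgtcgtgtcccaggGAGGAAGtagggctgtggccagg
The shared letters are a description of these windows and were not set against the diet. Whether they bear on how the members varied from pup to pup was not tested.

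In males, the members were higher on maternal WSD in the sense that all 10 changes were positive, with a median log2 change of 0.67 over the members, against 0.01 over the 10810 genes tested. Of these 10810 genes, 5710 had a positive change in males. The members varied together from pup to pup, as given below, so their signs are not 10 separate results. At an unadjusted p of at most 0.01, the threshold of the study, 3 of the 10 rose, S100a9, Ltf and Cxcr2, and none fell. Rose and fell are used below for changes past that threshold, and the p printed beside a change is adjusted over all genes. Among all genes tested, 3.02% rose at that threshold. No member passed an adjusted p under 0.05 (limma, Benjamini-Hochberg), the smallest being 0.0797 for Cxcr2. Cxcr2 passed the intensity filter described below only with the WSD pups, where it is higher, so its call has that limit. An unadjusted p of at most 0.05 was reached by 7 members and by 14.3% of all genes. In females, 7 of the 10 changes were positive, as were 6066 of the 10810 genes tested, with a median of 0.30 (0.01 over all genes). No member rose or fell at p 0.01 in females, where 3.60% of all genes rose, and 2 members, Mmp8 and Cxcr2, had a p of at most 0.05, near the share of all genes that did (14.5%). No member had WSD pups that all lay above the LFD pups, either in males (0.851% of all genes did) or in females (0.342%).

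**Figure D1:**
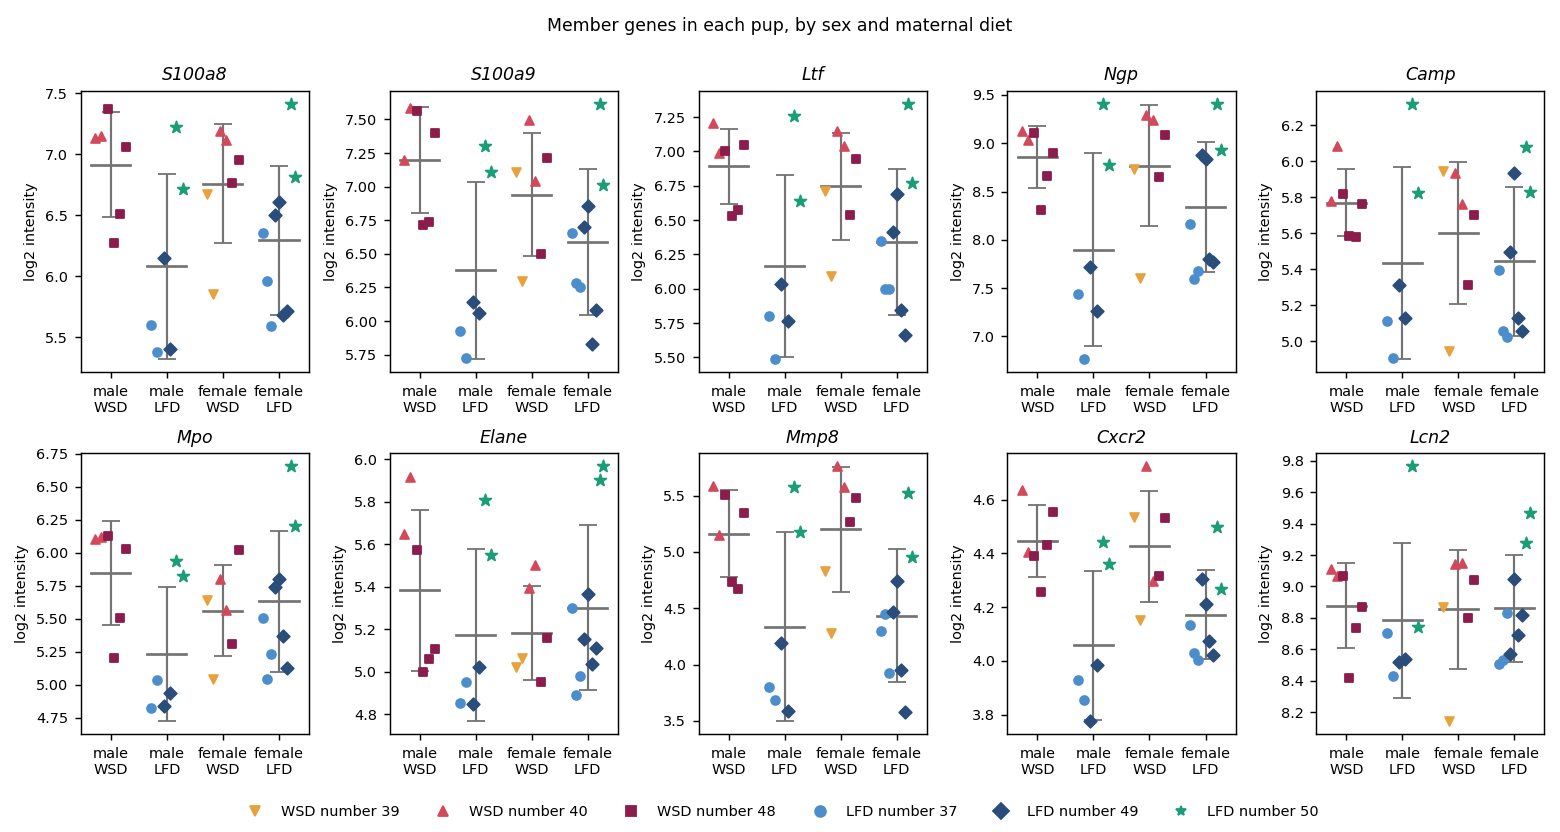
Log2 intensity (vertical axis) of each member in each of the 27 pups, in males and females of WSD and LFD dams. Lines and bars are the mean and SD of the group and symbols give the number of the array name; the LFD pups of number 50 (stars) lie among or above the WSD pups in every panel.

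S100a8 and S100a9 encode the subunits of calprotectin, which fills the cytosol of neutrophils. S100a8 ranged from 6.27 to 7.37 with a median of 7.09 in m-WS pups, and from 5.38 to 7.22 with a median of 5.88 in m-LF pups. The groups overlapped, as m-LF5 (7.22) and m-LF6 (6.71) lay inside the WSD range, whereas the other 4 m-LF pups had 5.60, 5.38, 6.15 and 5.41, all below the lowest m-WS pup. The change of S100a8 was 0.84 ± 0.31 (log2, SE, 1.78-fold, limma, adjusted p = 0.183). S100a9 ranged from 6.72 to 7.59 with a median of 7.30 in m-WS pups and from 5.72 to 7.30 with a median of 6.10 in m-LF pups. It rose by 0.82 ± 0.27 (1.77-fold, limma adjusted p = 0.137). Again m-LF5 (7.30) and m-LF6 (7.11) were the only m-LF pups that reached the WSD range.

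In females, S100a8 ranged from 5.85 to 7.19 (median 6.86) in f-WS pups and from 5.59 to 7.41 (median 6.35) in f-LF pups. The highest f-LF pup was f-LF8 and the lowest f-WS pup was f-WS2, so that the ranges crossed at both ends. S100a9 ranged from 6.30 to 7.49 (median 7.07) in f-WS pups and from 5.83 to 7.62 (median 6.65) in f-LF pups, with the same pups at the ends of the overlap. The changes were 0.47 ± 0.28 for S100a8 (limma adjusted p = 0.455) and 0.35 ± 0.25 for S100a9 (adjusted p = 0.552).

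Mpo encodes the peroxidase of azurophil granules and Elane their serine protease. Mpo ranged from 5.20 to 6.13 with a median of 6.06 in m-WS pups and from 4.82 to 5.94 with a median of 4.98 in m-LF pups. Its change in males was 0.62 ± 0.24 (1.53-fold, limma adjusted p = 0.217). In f-WS pups Mpo lay between 5.04 and 6.02 (median 5.60) and in f-LF pups between 5.04 and 6.66 (median 5.51), with a change of -0.07 ± 0.22 (adjusted p = 0.927). Of the members, Mpo came closest to a difference between males and females in this change, 0.68 ± 0.33 (adjusted p = 0.503), and missed p 0.01. Elane ranged from 5.00 to 5.91 (median 5.34) in m-WS pups and from 4.85 to 5.81 (median 4.98) in m-LF pups. In f-WS pups it ranged from 4.95 to 5.50 (median 5.11), and in f-LF pups from 4.89 to 5.97 (median 5.15). Its changes, 0.21 ± 0.19 in males (adjusted p = 0.680) and -0.12 ± 0.17 in females (adjusted p = 0.813), were within the spread of the pups.

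Among the specific granule genes, Ltf (lactoferrin, which binds iron) and Ngp (neutrophilic granule protein) had 4 of the 6 m-LF pups below every m-WS pup. So did Camp, whose values are given after these, and, outside the specific granules, S100a8, S100a9, Mpo, Mmp8 and Cxcr2. Lcn2 and Elane did not. Of all genes, 3.91% had the m-LF pups of numbers 37 and 49 below every m-WS pup. Ltf ranged from 6.53 to 7.21 with a median of 7.00 in m-WS pups and from 5.49 to 7.26 with a median of 5.92 in m-LF pups. It rose by 0.73 ± 0.26 (1.65-fold, limma adjusted p = 0.168). Ngp ranged from 8.31 to 9.13 with a median of 8.97 in m-WS pups and from 6.77 to 9.41 with a median of 7.58 in m-LF pups. Its change was 0.96 ± 0.36 (1.94-fold, adjusted p = 0.193). For both genes m-LF5 was the highest of all males. In f-WS and f-LF pups the medians were 6.83 and 6.35 for Ltf and 8.91 and 8.17 for Ngp, with changes of 0.41 ± 0.24 (adjusted p = 0.439) and 0.43 ± 0.33 (adjusted p = 0.603).

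Camp, the cathelicidin peptide, and Lcn2, which sequesters bacterial siderophores and is also made by hepatocytes in the acute phase, did not pass the threshold in either sex. Camp ranged from 5.58 to 6.08 (median 5.77) in m-WS pups and from 4.91 to 6.32 (median 5.22) in m-LF pups, with a change of 0.33 ± 0.21 (limma adjusted p = 0.511). Its change in females was 0.16 ± 0.19 (adjusted p = 0.768). Lcn2 ranged from 8.42 to 9.11 (median 8.97) in m-WS pups and from 8.43 to 9.76 (median 8.62) in m-LF pups, with a change of 0.09 ± 0.20 (adjusted p = 0.887), and its change in females was -0.01 ± 0.18 (adjusted p = 0.993).

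Mmp8, the neutrophil collagenase, and Cxcr2, the receptor for the chemokines that draw neutrophils out of the marrow, did not pass the intensity limit on all arrays. An intensity of 20, the limit of the filter, was reached by Mmp8 in 6 of 6 m-WS, 2 of 6 m-LF, 5 of 6 f-WS and 5 of 9 f-LF pups, and by Cxcr2 in 5 of 6, 2 of 6, 3 of 6 and 1 of 9 of the same groups. The other 8 members reached it in all 27 pups. The filter asked for 4 arrays of any group. Mmp8 would have passed it on the LFD arrays alone, whereas Cxcr2 passed it only with the WSD pups, so that its part in the counts has that limit. Both were dim in m-LF pups, which limits their changes in males. Mmp8 ranged from 4.67 to 5.58 (median 5.25) in m-WS pups and from 3.59 to 5.58 (median 4.00) in m-LF pups, with a change of 0.83 ± 0.32 (1.77-fold, limma adjusted p = 0.203). In females its change was 0.77 ± 0.29 (adjusted p = 0.213), and the values ranged from 4.28 to 5.76 in f-WS pups and from 3.58 to 5.52 in f-LF pups. Cxcr2 lay between 4.25 and 4.63 in m-WS pups and between 3.78 and 4.44 in m-LF pups, and rose by 0.39 ± 0.11 (1.31-fold, adjusted p = 0.0797). Its change in females was 0.26 ± 0.10 (adjusted p = 0.227).

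The changes in males and in females did not differ at p 0.01 for any member, although the fitted male change was the larger one for all 10, an order that turned round under other settings for Mmp8, Lcn2, S100a8 and Camp. Over all genes, 2.50% differed between the sexes at that threshold, and 5126 of 10810 had a male change above the female one. The median of the differences was 0.33 for the members and -0.01 for all genes. Males and females of the same diet did not differ at p 0.01 in any member, on WSD (3.35% of all genes did) or on LFD (1.37%). On LFD all 10 members had a negative male minus female difference, with a median of -0.15, and on WSD 9 of 10 had a positive one, with a median of 0.15. The comparisons share pups and are not independent of each other. The members varied together, so the signs of the 10 are not independent either.

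In males, and in 8 of the 10 members, the pups that joined the 2 diets were those of number 50. Both m-LF pups of number 50 lay above each other m-LF pup in all 10 members, as did 11.8% of all genes tested, and both reached at least the lowest m-WS pup in all 10. In 8 members every m-WS pup lay above every m-LF pup of numbers 37 and 49 (3.91% of all genes), the exceptions being Elane and Lcn2. The number means of Ngp show the pattern: 9.08 and 8.74 for the m-WS pups of numbers 40 and 48, and 7.10, 7.49 and 9.09 for the m-LF pups of numbers 37, 49 and 50. In females, both f-LF pups of number 50 lay above each other f-LF pup in 8 members (5.74% of all genes), and no member had every f-WS pup above every f-LF pup of numbers 37 and 49 (0.712% of all genes). Within f-LF pups, Ngp averaged 7.81, 8.32 and 9.17 in numbers 37, 49 and 50, against 8.17, 9.27 and 8.87 in the f-WS pups of numbers 39, 40 and 48.

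**Figure D2:**
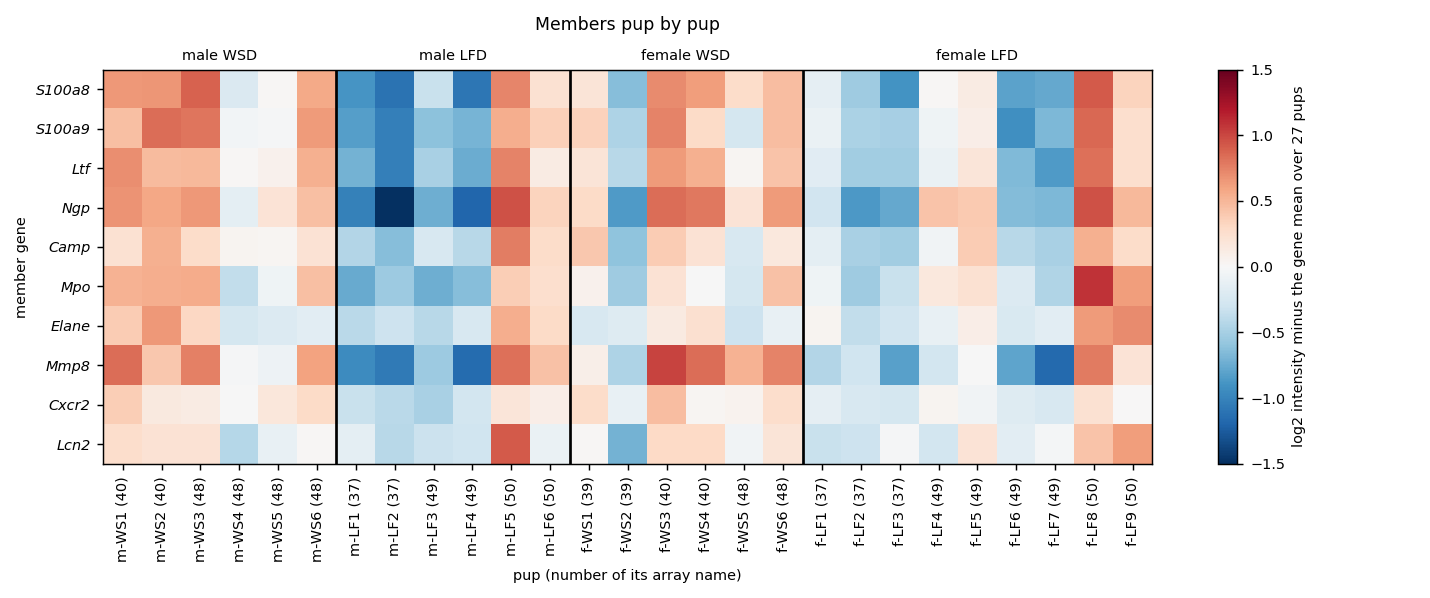
Each member (rows) in each pup (columns, with the number of its array name), as log2 intensity minus the mean of the gene over 27 pups (colour scale in log2 units). The m-LF and f-LF pups of number 50 are coloured like the WSD pups, and f-WS2 of number 39 is coloured like most LFD pups.

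A test for the numbers was added after the values had been seen. Within LFD, with sex as a term, all 10 members differed between the numbers at p 0.01 (moderated F test of limma, adjusted p between 0.00244 for Elane and Mmp8 and 0.0491 for Cxcr2), as did 7.38% of all genes tested. Within WSD, 4 members, Ngp, Elane, Mmp8 and Lcn2, differed between numbers (4.33% of all genes), with the smallest adjusted p for Elane (0.0481). The other 6 members did not pass the test within WSD. The cause of this variation was not tested, and number and diet cannot be told apart where a number lies within 1 diet.

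The pups that weighed on the count in males were many. Leaving out m-LF5 or m-LF6 raised the number of members that rose to 7, leaving out m-WS4 or f-LF8 to 6 and leaving out f-WS2 to 5, whereas leaving out m-LF1, m-LF2, m-LF3, m-LF4, m-WS2, m-WS3 or m-WS6 lowered it to 1. With 1 of these pups left out, 2.36% to 3.94% of all genes rose in males. Without m-LF6 and m-WS1, the males with an Xist signal, 2 members rose (3.35% of all genes). They were S100a9 by 0.97 ± 0.30 (limma adjusted p = 0.0852) and Cxcr2 by 0.41 ± 0.12 (adjusted p = 0.0591), and the median change was 0.72. In females, 2 members rose without f-LF8 or without f-WS2, and 1 without f-LF9 or m-LF5 (3.59% to 3.94% of all genes). With the number as a random block, 3 members rose in males (2.16% of all genes) and none in females. The block used 1 correlation for all genes, 0.089. All 10 members differed between the numbers of LFD, so this block may allow too little for them. With pups of the same number and sex averaged, no member rose in either sex, and 1.13% of all genes rose in males and 1.12% in females.

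Without the 4 pups of number 50, 9 of the 10 members rose in males, 8 of them at an adjusted p under 0.05 (limma), with a median change of 1.03. The same setting had 4.88% of all genes rising. The changes were 1.56 ± 0.28 for Ngp (adjusted p = 0.00257), 1.35 ± 0.24 for Mmp8 (0.00257), 1.28 ± 0.25 for S100a8 (0.00399) and 1.24 ± 0.22 for S100a9 (0.00205), and Lcn2 was the member that did not pass, with 0.33 ± 0.15 (adjusted p = 0.239). In females, 5 members rose without these pups, S100a8, S100a9, Ltf, Mmp8 and Cxcr2, with a median change over all members of 0.44, against 4.72% of all genes. For the difference between the sexes, 1 member, Mpo, passed p 0.01 in this setting. In females, Mmp8 had 1.00 ± 0.21 (adjusted p = 0.0183) and Cxcr2 0.32 ± 0.08 (adjusted p = 0.0479). This setting leaves out the LFD pups of highest signal and is a description of what they weigh. Without number 37, 48 or 49, no member rose in either sex. Among all genes, 2.19%, 1.71% and 1.65% rose there in males, and 5.37%, 2.43% and 1.06% in females.

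**Figure D3:**
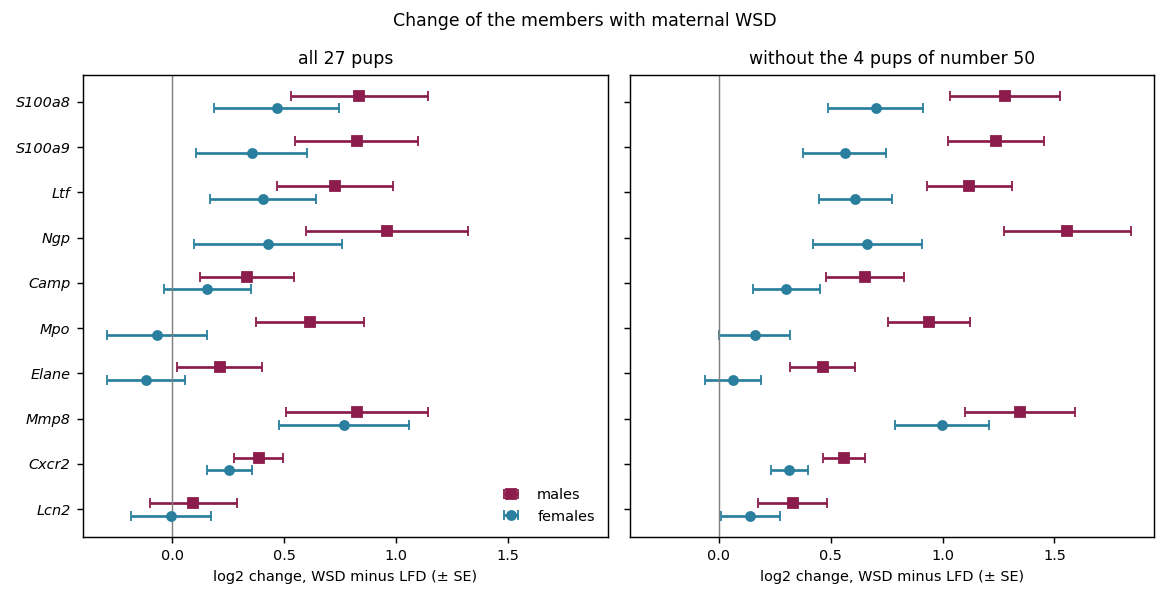
Log2 change (WSD minus LFD, horizontal axis, with its SE) of each member in males (squares) and females (circles), for all 27 pups and without the 4 pups of number 50. The change of Ngp in males was 0.96 with all pups and 1.56 without number 50, and that of Lcn2 was near 0 with all pups.

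The members varied together beyond the groups. After the mean of each group was removed, Pearson's r over 27 pups was positive in all 45 pairs, between 0.66 and 0.96 with a median of 0.85, and Spearman's rho was between 0.62 and 0.95. In a 2-sided permutation test with 100000 resamples, all 45 pairs passed an adjusted p under 0.05 for both coefficients; the largest p for r was 0.00023, for Elane and Cxcr2, and most pairs had 1e-05, the smallest that these permutations can give. Leaving out the 2 pups farthest from the median of the first gene left r between 0.66 and 0.96, and leaving out m-LF6 and m-WS1 left it between 0.62 and 0.96. Ltf had the highest median r with the other members (0.94), and Lcn2 the lowest (0.78).

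Part of this went with the numbers. In deviations from the mean of sex and number, r lay between 0.10 and 0.94 with a median of 0.67. In a permutation test with fewer resamples, 42 of the 45 pairs passed an adjusted p under 0.05. That test permuted the deviations freely although the means of sex and number had been removed, so its p-values are too small. Pairs of moderate r are therefore left undecided by it. The same limit holds, to a lesser degree, for deviations from the group means. Ltf, S100a8, S100a9 and Ngp stayed close (0.94 for Ltf and Ngp, 0.91 for S100a8 and Ngp), whereas the median r of Elane fell to 0.45, against 0.79 in deviations from the group means. Elane and Cxcr2, an early and a late gene of the lineage, had the lowest r, 0.10. Without the 4 pups of number 50, r was between 0.31 and 0.92.

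**Figure D4:**
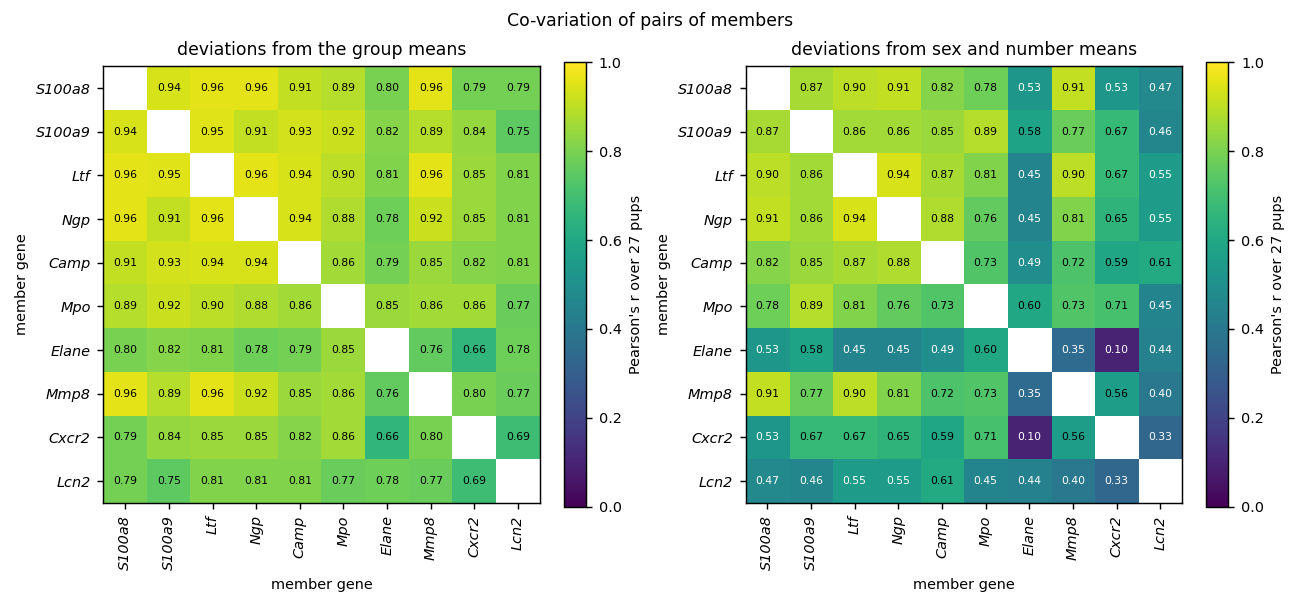
Pearson's r of each pair of members over 27 pups (colour and printed value), in deviations from the group means and in deviations from the means of sex and number. The block of S100a8, S100a9, Ltf, Ngp and Camp stays at 0.82 or above in both panels, and Elane and Lcn2 are lower in the second.

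The non-member genes whose deviations from the group means most resembled the mean of the members' standardised deviations over the 27 pups were Ifitm6 (r = 0.95), Retnlg (0.93), Cstdc4 (0.92), Gp9 (0.91), Ermap (0.90), Ppbp (0.89), Chil1 (0.88), Itgam (0.87), Rgs18 (0.87) and Cxcl10 (0.87). Retnlg (resistin-like gamma) and Itgam (the integrin subunit CD11b) are known from neutrophils, Gp9 and Ppbp from platelets, and Ermap from erythroid cells. Of these 10 genes, Chil1 rose in males (0.44 ± 0.15, limma adjusted p = 0.137) and none rose in females. The changes of Ermap and Cxcl10 were near 0 in males (0.02 and 0.06) and negative in females (-0.14 and -0.22).

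Other genes of the lineage were taken from lists of granule proteins, receptors, transcription factors and progenitor markers. Single genes of some lists rose, and of all genes tested 3.02% rose in males and 3.60% in females. Ctsg, the cathepsin G of azurophil granules, rose in males by 0.37 ± 0.11 (limma adjusted p = 0.0993), the only one of 3 azurophil genes tested besides the members, and the change of Prtn3 was 0.17 (adjusted p = 0.665). Cd177 rose by 0.40 ± 0.14 (adjusted p = 0.163), 1 of 5 specific granule genes. None of 5 gelatinase granule genes rose in either sex, with Mmp9 at 0.33 in males (adjusted p = 0.363) and 0.35 in females. Among the neutrophil receptors, Cxcr4, which retains cells in the marrow, had 0.47 in males (adjusted p = 0.220) and none of 3 rose. Of 8 transcription factors tested, Myb, a factor of progenitors, rose in males by 0.76 ± 0.27 (adjusted p = 0.177), and Irf8, a factor of monocytes, rose in females by 0.24 ± 0.07 (adjusted p = 0.0957). None of 4 chemokine and growth factor genes and none of 5 progenitor genes rose or fell, with Cxcl1 at -0.23 (adjusted p = 0.464) and Kit at -0.19 (adjusted p = 0.368) in males. The 2 oxidase genes, Ncf1 and Ncf4, also did not pass. Between the numbers of LFD, 3 of 3 receptor, 2 of 2 oxidase, 3 of 5 specific granule and 2 of 5 gelatinase granule genes differed at p 0.01. The same held for 1 of 3 azurophil, 2 of 8 transcription factor, 2 of 5 progenitor and 0 of 4 chemokine and growth factor genes. Of all genes, 7.38% differed between these numbers.

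Some markers of other blood cells differed with the diet or with the numbers. Of 7 genes of B cell precursors tested, 5 rose in males (3.02% of all genes) and none in females (3.60% of all genes). They were Igll1, the surrogate light chain, by 1.14 ± 0.25 (limma adjusted p = 0.0332), Ebf1 by 0.89, Cd79a by 0.84, Pax5 by 0.72 and Blnk by 0.64. The mean log2 signal of the 7 genes lay between 6.41 and 7.16 in m-WS pups, 5.42 and 6.95 in m-LF pups, 6.14 and 7.24 in f-WS pups and 5.84 and 7.45 in f-LF pups. The highest m-LF pup was m-LF6, but m-LF5, the highest of all males in Ltf and Ngp, had the lowest B cell mean of all pups. Between the numbers of LFD, 2 of the 7 B cell precursor genes differed (7.38% of all genes did). No erythroid gene rose or fell with the diet, yet 5 of 6 differed between the numbers of LFD. The mean of the erythroid genes was 6.01 and 6.43 in the m-LF pups of number 50, against 5.59 to 5.81 in the other m-LF pups. Likewise 3 of 5 platelet genes differed between these numbers and none rose or fell with the diet. Their part in the members' values was not tested.

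Among genes that passed the filters, markers of macrophages and of the cells named next did not pass the test for diet. None of 10 Kupffer cell genes (with means between 8.69 and 9.54 over the pups), 5 monocyte genes, 4 eosinophil genes, 5 T and NK cell genes and 2 hepatocyte genes rose or fell at p 0.01 in either sex. Between the numbers of LFD, 1 Kupffer cell gene, no monocyte gene, 2 eosinophil genes, 1 T and NK cell gene and 1 mast cell gene differed (7.38% of all genes did). The mean of the monocyte genes was 6.19 and 6.47 in the m-LF pups of number 50, against 5.90 to 6.06 in the other m-LF pups, and m-LF5 had the highest monocyte and Kupffer cell means of all pups. Their part in the members' values was not tested. Of 2 mast cell and basophil genes tested none passed. Mcpt8, a basophil protease under the intensity filter, had 0.41 in males in a fit of all genes without the filter. Its unadjusted p there was 0.00338 (limma, adjusted p = 0.166), which is past p 0.01, but its signal was dim, with a highest group mean of 3.65. Of 8 acute phase genes, Saa2 (serum amyloid A) rose by 1.1 ± 0.31 (adjusted p = 0.0745) and Hamp (hepcidin, which blocks iron export) by 1.66 ± 0.43 (adjusted p = 0.0577) in males, and Steap4 fell by 0.21 (adjusted p = 0.148). The change of Hamp was -0.48 in females, and the difference between the sexes, 2.14 ± 0.58, passed p 0.01 (adjusted p = 0.355). Between the numbers, 3 of the 8 acute phase genes differed on LFD (7.38% of all genes) and 4 on WSD (4.33% of all genes). The mean of the acute phase genes lay between 5.76 and 6.77 in m-WS pups, 5.50 and 5.95 in m-LF pups, 5.36 and 6.46 in f-WS pups and 5.55 and 6.22 in f-LF pups.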

How the data were processed

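The deposited table holds log2 intensities that the authors made with RMA (background correction, quantile normalization and summarization), per the labels and their methods; the version is not given in the sources used here. Of 35556 probe sets, 21218 name a single gene, and per gene the brightest one on average was taken, which gave 18820 genes. The filters of the study were used: 4 or more arrays had to reach an intensity of 20, and the IQR had to reach 0.1, which left 10810 genes. A model with a mean per group was fitted in limma 3.58.1 (R 4.3.3) with an intensity trend, and p-values were adjusted by Benjamini and Hochberg over all 10810. A gene is said to have risen or fallen at an unadjusted p of at most 0.01, the threshold of the study, and the adjusted p is printed. The fit was tested on simulated data. The members, gene lists and rule for named genes (the members, list genes at p 0.01 or otherwise up to 2 of smallest p per list, and the 10 most alike genes) were chosen with earlier results of these data known. Listed genes without a single-gene probe set were not analysed here. Replicates are pups, and their number limits the precision. The replicate numbers of the titles do not pair the pups: same-numbered pups of the 2 diets correlated between -0.26 and 0.26. The alternatives were other filters, normalizations, weights, blocks and subsets of arrays. Correlations and figures were computed in Python 3.11.15.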

Additional observations from a re-analysis of the deposited data

Results flagged for a closer look

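Among 40 sets of a member in a group of pups, 2 had a pup far from the rest, and chance gives about 1 in 20. Both were of Lcn2: m-LF5 had 9.76, against 8.43 to 8.74 in the other m-LF pups, and f-WS2 had 8.14, against 8.80 to 9.15 in the other f-WS pups. Of the listed genes, Hamp had a change by maternal diet that differed between the sexes, by 2.14 on the log2 scale (male minus female change, limma adjusted p = 0.355).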

How the results depend on the processing

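The counts of members that rose, 3 in males and 0 in females, moved with the arrays used. The share of all genes that rose is given in brackets. In males the count was 7 with array weights (4.30%) and 0 with pups of equal number and sex averaged (1.13%). It was 1 with prefix 73 (1.93%) and 0 with prefix 74 (0.361%) of the array names alone, and 0 at an adjusted p under 0.05. It was 0, 5, 1, 0, 0 and 9 without numbers 37, 39, 40, 48, 49 and 50 (2.19%, 3.25%, 2.28%, 1.71%, 1.65% and 4.88%). With numbers 37, 49, 40 and 48 alone, a setting chosen after seeing the data, it was 9 (5.03%). In females the count was 1 with quantile normalization repeated (2.44%), 2 with array weights (4.40%) and 1 with each sex fitted alone (3.33%). It was 1 without number 39 (3.78%), 5 without number 50 (4.72%) and 6 with numbers 37, 49, 40 and 48 alone (5.28%). With the replicate block the counts were 7 in males (3.41%) and 2 in females (3.59%), although same-numbered pups share only a number. Leaving out 1 pup gave 1 to 7 in males (2.36% to 3.94%) and 0 to 2 in females (2.55% to 4.26%). For the difference between the sexes the count was 1 without number 50, and between males and females on LFD it was 1 without number 50 and 2 with the 4 numbers alone. The median change stayed between 0.465 and 1.03 in males and between 0.122 and 0.53 in females over all these settings. The sign of single changes near 0 turned round in some settings. Lcn2 in males was -0.127 with prefix 73 alone, and -0.014, -0.011 and -0.033 without numbers 37, 40 and 49. In females, Mpo was 0.039 with array weights, 0.049 with prefix 73, 0.113 with the replicate block, 0.042 and 0.16 without numbers 39 and 50 and 0.27 with the 4 numbers alone, and -0.16 to 0.06 without 1 pup. Elane in females was 0.061 with the replicate block, 0.063 without number 50 and 0.132 with the 4 numbers alone. Lcn2 in females was 0.069 with array weights, 0.112 with prefix 73, 0.159 with the replicate block, 0.17 and 0.141 without numbers 39 and 50 and 0.316 with the 4 numbers alone, and -0.063 to 0.137 without 1 pup. For the male minus female change, prefix 73 alone gave -0.053 for S100a8, -0.032 for Camp, -0.107 for Mmp8 and -0.24 for Lcn2, and the replicate block gave -0.067 for Mmp8 and -0.065 for Lcn2. Mmp8 was also -0.033 with array weights, -0.136 and -0.264 without numbers 37 and 39 and -0.126 to 0.306 without 1 pup, and Lcn2 was -0.076 without number 39 and -0.043 to 0.295 without 1 pup. The causes were not tested. Each member has 1 single-gene probe set, so no other probe set could be tried. The dim signal of Cxcr2 and Mmp8 on LFD arrays limits their changes.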
